A study of Mus musculus with 141 samples.

Results

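The 10 genes described here encode the proteins that copy, package, transcribe and supply the mitochondrial DNA (mtDNA) of the mouse: *Tfam*, *Polg*, *Polg2*, *Twnk*, *Ssbp1*, *Polrmt*, *Tfb2m*, *Mgme1*, *Tk2* and *Dguok*. They were taken by name, with earlier results of these data known, from the 36558 genes of an RNA-seq data set of subcutaneous adipose tissue. All 10 were found and passed the filter on low counts. Their levels were compared between females and males, between strains, and against the share of each library's counts that came from the 13 mitochondrially encoded genes (symbols starting with mt-).

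The study asked how sex and genetic background shape mitochondrial gene expression in the adipose tissue of the Hybrid Mouse Diversity Panel, a set of inbred and recombinant inbred mouse strains. The libraries come from 67 females and 74 males of 82 strains, with no more than 1 library of a sex in a strain, and 59 strains have a library of each sex. Among these 59 strains, 26 are BXD recombinant inbred strains, bred from C57BL/6J and DBA/2J, and 33 are others: 9 AXB or BXA strains, 3 CXB strains, 1 BXH strain and 20 further inbred strains. The BXD strain BXD24/TyJ-Cep290<rd16>/J, with a library of each sex, carries the rd16 mutation of *Cep290*. The label of the inbred strain BTBR T<+> tf/J, also with a library of each sex, names the alleles T<+> and tf. All groups were fed the HF/HS diet, rich in fat and sucrose, which was started at an age of 8 weeks and lasted for 8 weeks, and food was withdrawn for 4 h before dissection. No group was on another diet, and the labels name no transgene or drug, so the comparisons concern sex, strain and the state of the sampled fat pad under this diet. Estimated counts per library lay between 6.27 M and 78.6 M, with a median of 30.2 M.

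Mitochondria keep many copies of a small circular genome that encodes subunits of the respiratory chain, while every protein that maintains this genome is made from nuclear genes. TFAM coats the DNA and bends its promoters, the polymerase POLRMT starts transcripts there together with TFB2M, and short transcripts of POLRMT also serve as primers for replication. Replication itself runs on the helicase Twinkle, the polymerase POLG with its accessory subunit POLG2, and the single-strand binding protein SSBP1. MGME1 trims the ends that are left over. TK2 and DGUOK are kinases of the mitochondrial matrix that salvage pyrimidine and purine deoxynucleosides into building blocks. Loss of function in most of these genes is known to cause mtDNA depletion or deletions.

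The promoters of such genes are known for sites of the factors NRF1, GABP (NRF2) and Sp1, so the RefSeq windows of GRCm38.p6 from 250 bases before to 50 bases after each start were searched on both strands for short motifs. A window was found for each of the 10 genes, and *Twnk* has windows at 2 starts. The upstream window of *Twnk* held none of the motifs. Starts here are those of RefSeq, while the gene spans given further on are those of the GENCODE annotation, which can differ. For *Tfam* the bases printed below lie inside its GENCODE span. Below are the 150 bases before the start of the 3 genes with the GABP letters CCGGAAGT and of *Polrmt*, the gene with the NRF1 core letters GCATGCGC before its start; capitals mark matches to these motifs and to the Sp1 letters GGGCGG.
Tfam, chr10:71238045-71238194, minus strand: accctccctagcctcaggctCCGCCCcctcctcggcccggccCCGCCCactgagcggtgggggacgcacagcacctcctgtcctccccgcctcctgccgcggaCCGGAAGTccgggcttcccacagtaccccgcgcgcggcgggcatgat
Polg, chr7:79466274-79466423, minus strand: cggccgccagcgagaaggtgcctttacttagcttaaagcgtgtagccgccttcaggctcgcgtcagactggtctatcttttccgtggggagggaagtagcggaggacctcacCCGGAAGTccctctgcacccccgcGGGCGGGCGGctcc
Twnk, chr19:45006408-45006557, plus strand: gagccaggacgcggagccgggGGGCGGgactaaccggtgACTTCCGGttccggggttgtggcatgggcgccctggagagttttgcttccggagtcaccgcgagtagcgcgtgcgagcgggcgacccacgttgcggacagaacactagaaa
Polrmt, chr10:79746582-79746731, minus strand: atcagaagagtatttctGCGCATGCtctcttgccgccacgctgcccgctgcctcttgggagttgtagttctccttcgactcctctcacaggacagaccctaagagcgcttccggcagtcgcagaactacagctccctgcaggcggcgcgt

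The GABP match began 47 bases before the start of *Tfam*, 38 before that of *Polg* and, on the opposite strand and farther out, before the start of *Twnk*. These letters stand in 3.89% of the 32851 promoter windows of the table. In *Polg* a pair of Sp1 matches overlap each other, and Sp1 letters, at 35.7% of all windows, also stand in *Ssbp1*, *Tfb2m* and *Tk2*. The NRF1 core, at 2.71% of all windows, stood before the start of *Polrmt* on the opposite strand and 13 bases past the start of *Tfb2m*. The YY1 letters AAGATGGC (2.75% of windows) began 66 bases before the start of *Mgme1*, and the CREB letters TGACGTCA (1.79% of windows) spanned the start of *Dguok*. *Polg2* held none of the motifs searched, and the full NRF1 palindrome and the estrogen-related receptor letters TCAAGGTCA (0.971% and 0.423% of windows) were in no member. Each match describes letters only, since no binding was measured.

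In TPM, which is scaled for transcript length and so allows levels of different genes to be compared, the single-strand binding protein and the packaging factor led the list. Median TPM over all libraries was 57.003 for *Ssbp1*, 48.96 for *Tfam*, 47.8 for *Tfb2m*, 43.3 for *Polg*, 36.97 for *Dguok*, 24.1 for *Tk2*, 12.9 for *Polrmt*, 7.45 for *Mgme1*, 6.66 for *Twnk* and 6.42 for *Polg2*. Thus the catalytic subunit of the polymerase stood far above its accessory subunit, and the helicase was among the lowest. Neighbours in the order that hardly differed were *Tfam* and *Tfb2m*, with *Tfam* above in 76 libraries, and *Mgme1*, *Twnk* and *Polg2*, where each gene was above the next in 80 libraries. The steps from *Dguok* to *Tk2* and from *Tk2* to *Polrmt* held in all but 2 libraries each. Against all genes tested, *Ssbp1* was above 87.3% of them by median TPM and *Polg2* above 41.3%.

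**Figure D1:**
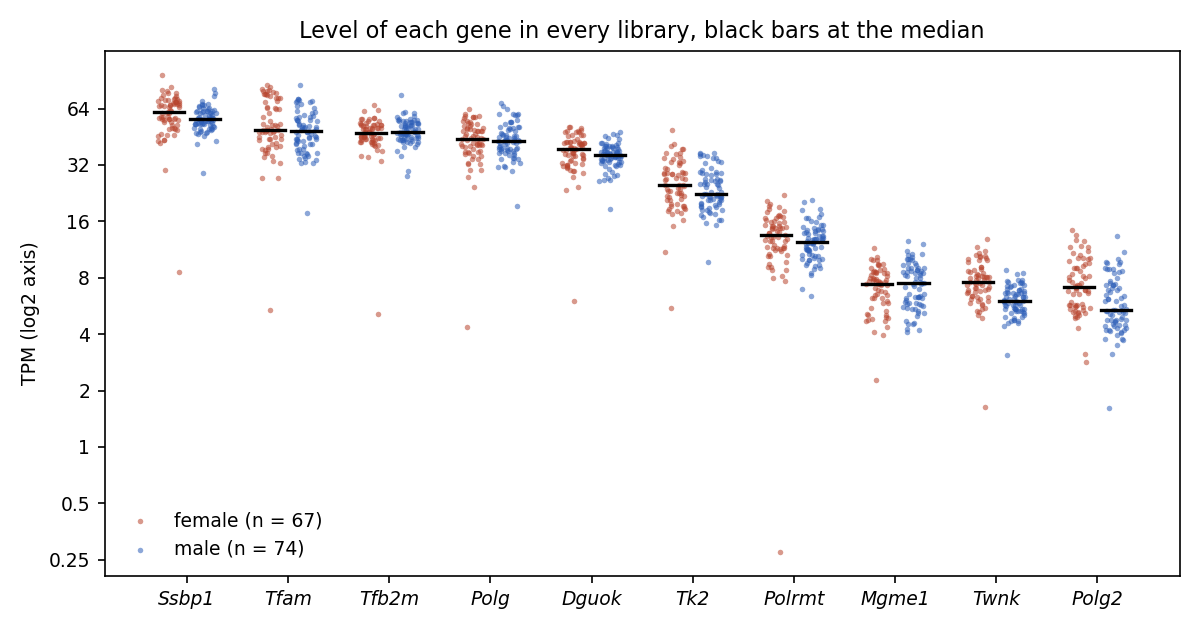
TPM (log2 axis) of each gene in every female (n = 67) and male (n = 74) library, with genes in order of their median over all libraries and black bars at the median of each sex. Levels run from 57.003 TPM for *Ssbp1* to 6.42 for *Polg2*, and the low points under 9 of the genes are the BXD34/TyJ female.

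The genes varied less between libraries than most. CPM are counts scaled to the library total, with mt- genes left out of that total here and below unless stated. Exceptions are the CPM of cell type and Y-linked markers and the correlations of log2 CPM, whose totals include mt- genes. The SD of log2 CPM was 0.20 for *Dguok*, *Polg* and *Ssbp1*, 0.24 for *Tfb2m*, 0.25 for *Tfam* and 0.27 for *Tk2*. It was 0.31 for *Twnk*, 0.39 for *Polrmt*, 0.42 for *Mgme1* and 0.47 for *Polg2*, beside a median of 0.48 over all genes tested. *Dguok* varied less than all but 7.63% of these genes, and *Polg2* was close to the middle, with 48.9% below it. The value of *Polrmt* rested on the BXD34/TyJ female, which is described next: without it the SD was 0.24 for *Polrmt*, 0.41 for *Polg2* and 0.16 for *Polg*, beside a median of 0.45 over all genes.

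Some libraries stood apart or went against their labels. The BXD34/TyJ female was the shallowest library, had the highest mitochondrial share (29.9%) and had the lowest TPM in 9 of the 10 genes. Its *Polrmt* rested on 4 counts (0.276 TPM, beside a next lowest value of 6.43). Its *Polg2* was the highest of all libraries in CPM (60.6), but not in TPM (7.75). In CPM its *Tfam* (41.5) and *Twnk* (15.1) were within the range of the other libraries. Its *Polg* (25.4), *Ssbp1* (25.8) and *Polrmt* (1.26) were the lowest in CPM too. The CXB11/HiAJ male, the deepest library, had a share of 25.1% and was among the 3 lowest TPM values in 9 genes. This depended on the scale. TPM totals include the mt- genes, which take up more of the total in high-share libraries, while the CPM totals leave them out. In CPM the CXB11/HiAJ male was not low for *Ssbp1* (47.9), *Tfam* (43.1) and *Tfb2m* (68.4), while its *Polg2* (5.56) was low there too. Summed CPM of the Y-linked genes *Ddx3y* and *Eif2s3y*, with a limit of 20, went against the label in 1 female library (BXD69/RwwJ) and 1 male library (NZW/LacJ). The highest values of the Y-linked genes *Uty* (701 CPM) and *Kdm5d* (86.5 CPM) were also in females. They fell among the 36 libraries with the highest mitochondrial share, to which BXD69/RwwJ, at 4.92%, does not belong. BXD34/TyJ and BXD69/RwwJ have no library of the other sex and so entered no test with strain in the model. Without NZW/LacJ the count of members called between the sexes was 4 in place of 5, with *Mgme1* no longer called, beside 10277 of 16766 genes.

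The adipocyte gene *Adipoq* was present in every library, at 349 to 2771 CPM, but other cell types varied widely. Summed CPM of 6 lymphocyte markers of T and B cells, among them *Cd3e*, *Cd4* and *Ms4a1*, lay between 102.2 and 1413 in 64 libraries (33 female, 31 male) and between 2.54 and 80.3 in the other 77, with a median of 38.8 in females and 13.8 in males. The sum of 9 mammary epithelial markers had a median of 532 CPM in females and 2.64 in males. For 6 adipocyte markers the medians were 18566 CPM in females and 26236 in males, for 6 macrophage markers 330.4 and 398, for 5 endothelial markers 823 and 1098, and for 5 adipose progenitor markers 1147 and 1025. Skeletal muscle markers ranged from 3.11 to 20002 CPM over all libraries. In bulk tissue, fewer cells of a type and less RNA per cell cannot be told apart.

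To see whether the maintenance genes differ by sex, the female and male library of each of the 59 strains were compared with edgeR's quasi-likelihood test with strain in the model and Benjamini-Hochberg adjustment over 16765 genes. The helicase gene and the gene of the polymerase's accessory subunit were 1.24-fold and 1.21-fold higher in females, the single-strand binding protein and *Tfam* were slightly higher, and *Mgme1* was slightly lower. With 5 of the 10 genes called at an adjusted p under 0.05, 4 higher in females and 1 higher in males, the share was near the background of this data set, where 58.5% of all genes were called, 28.5% higher in females and 30% higher in males. The median log2FC (female over male) of the 10 genes was 0.04, beside 0.01 over all genes tested. CPM in this comparison are scaled to the total of all genes, mt- genes included.

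*Twnk*, the replicative helicase (chromosome 19, 45005663 to 45012762), had the largest difference of the members. TPM ranged from 1.63 to 12.9 with a median of 7.56 in the 67 females and from 3.11 to 8.77 with a median of 6.01 in the 74 males. The ranges overlapped, with the male values in the lower part of the female ones. In the 59 strains it had 18.2 ± 3.74 CPM in females and 14.6 ± 2.52 in males (SD), and the female was higher in 47 strains (log2FC 0.31, SE 0.0428, adjusted p = 1.34e-08, edgeR).

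*Polg2*, which holds POLG on the DNA (chromosome 11, 106768253 to 106779537), had 2.83 to 14.3 TPM (median 7.10) in females and 1.62 to 13.4 TPM (median 5.41) in males. Again the ranges overlapped almost entirely while the medians were apart. The strains had 9.58 ± 2.18 CPM in females and 8.02 ± 2.31 in males (SD, n = 59), with the female higher in 48 (log2FC 0.27, SE 0.0473, adjusted p = 1.39e-06, edgeR). Its partner *Polg*, the catalytic subunit, had 64.6 ± 6.35 and 64.9 ± 6.66 CPM (log2FC -0.0058, 95% interval from -0.05 to 0.039). Accessory and catalytic subunit thus had different results in the same libraries, although the difference between the genes was not tested.

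*Ssbp1* (chromosome 6, 40471352 to 40484700) had 38.1 ± 4.98 CPM in females and 35.1 ± 4.50 in males and had a higher female value in 42 of 59 strains (log2FC 0.12, SE 0.0256, adjusted p = 0.000113, edgeR). *Tfam* (chromosome 10, 71225464 to 71238280) had 38.5 ± 6.31 and 36.2 ± 5.90 CPM, with 38 strains higher in the female (log2FC 0.09, SE 0.0354, adjusted p = 0.0258, edgeR). *Mgme1* (chromosome 2, 144270663 to 144281227) went the other way, with 12.1 ± 3.24 CPM in females, 13.3 ± 4.09 in males and a higher male in 33 strains (log2FC -0.12, SE 0.0517, adjusted p = 0.0405, edgeR). For each of the 5 called genes the difference in mean CPM was below the SD of the females over strains, while the test compares libraries within strains, and the calls of *Tfam* and *Mgme1* were close to the threshold.

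The remaining genes did not pass. *Tfb2m*, on chromosome 1 (179528055 to 179546267), had a log2FC of -0.06 (95% interval from -0.13 to 0.01) and *Tk2*, on chromosome 8 (104226685 to 104248558), of 0.06 (from -0.01 to 0.14). For *Dguok*, on chromosome 6 (83480217 to 83506969), it was 0.02 (from -0.03 to 0.07), and for *Polrmt*, on chromosome 10 (79736123 to 79746581), -0.015 (from -0.09 to 0.06). On log2(TPM + 1) with limma, however, *Polrmt* was higher in females by 0.15 (adjusted p = 0.00886), and the median of all genes was 0.05 on that scale. TPM divides by the length of the transcripts to which reads are assigned, and the TPM per CPM of *Polrmt* was higher in the female by 0.10 ± 0.28 on the log2 scale (SD, n = 59), a difference above that of 98.8% of 13290 genes. The direction for *Polrmt* was therefore not the same on both scales.

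The lymphocyte markers moved with several of these genes, as they did with 74.8% of all genes tested (edgeR, next paragraph). In the 64 libraries at 100 or more summed lymphocyte CPM, *Tfam* had 33.9 to 63.04 CPM (median 45.4), and in the other 77 it had 30.5 to 45.2 (median 35.4). *Tk2* had medians of 41.7 and 32.2 CPM, *Polg2* of 11.7 and 7.56, and *Polg* of 74.5 and 65.4. *Tfb2m* had the opposite order, at 46.3 and 53.2 CPM. Thus 62 of the 64 lymphocyte-rich libraries were above the median *Tfam* of the others. For the members not named in this paragraph so far, it was 55 for *Ssbp1*, 53 for *Twnk*, 40 for *Polrmt*, 37 for *Mgme1* and 32 for *Dguok*.

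**Figure D2:**
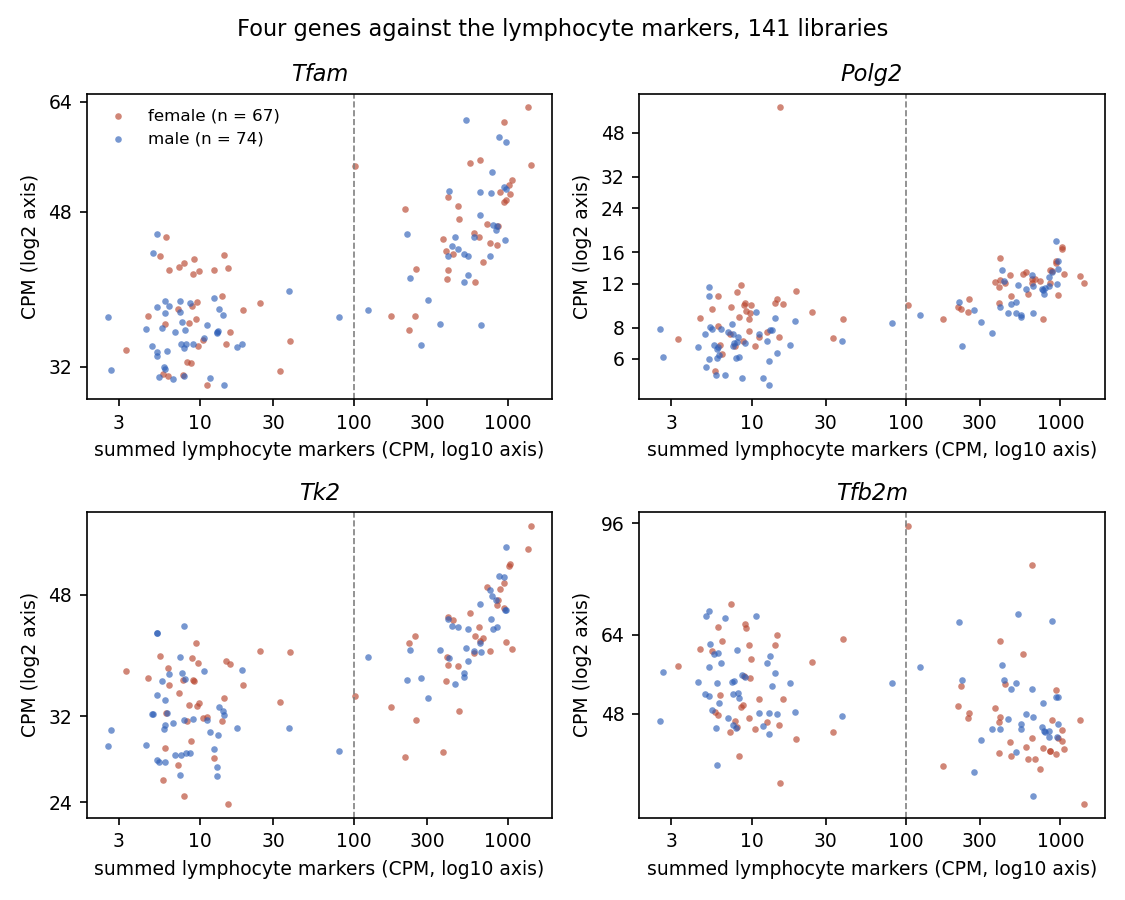
CPM (log2 axis) of *Tfam*, *Polg2*, *Tk2* and *Tfb2m* against summed CPM of 6 lymphocyte markers (log10 axis) in female (n = 67) and male (n = 74) libraries, with a dashed line at 100 CPM. *Tfam*, *Polg2* and *Tk2* have higher medians in the 64 libraries right of the line (45.4, 11.7 and 41.7 CPM) than left of it (35.4, 7.56 and 32.2), and *Tfb2m* a lower one.

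With log2 of the summed lymphocyte markers as a term beside strain and sex (edgeR, 59 strains), 6 of the 10 genes were called, 5 with a positive slope and 1 with a negative one. Over all genes 74.8% were called, 35.5% positive and 39.3% negative. Per doubling of the markers, log2 expression rose by 0.07 for *Polg2* and *Tk2*, 0.06 for *Tfam*, 0.03 for *Polg* and 0.02 for *Ssbp1*, and that of *Tfb2m* fell by 0.03. At equal marker levels the sex difference of *Tfam* was 0.04 (adjusted p = 0.162, edgeR), that of *Tk2* 0.0086, and that of *Mgme1* -0.11 (adjusted p = 0.0634, edgeR), so that *Tfam* and *Mgme1* were no longer called. *Twnk* (0.30, adjusted p = 2.9e-08), *Polg2* (0.21, adjusted p = 6.12e-07) and *Ssbp1* (0.10, adjusted p = 0.000486) kept their calls (edgeR). In the 19 strains with both libraries under 100 CPM, *Polg2* (0.32) and *Twnk* (0.30) were the members called, beside 6378 of 16105 genes.

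**Figure D3:**
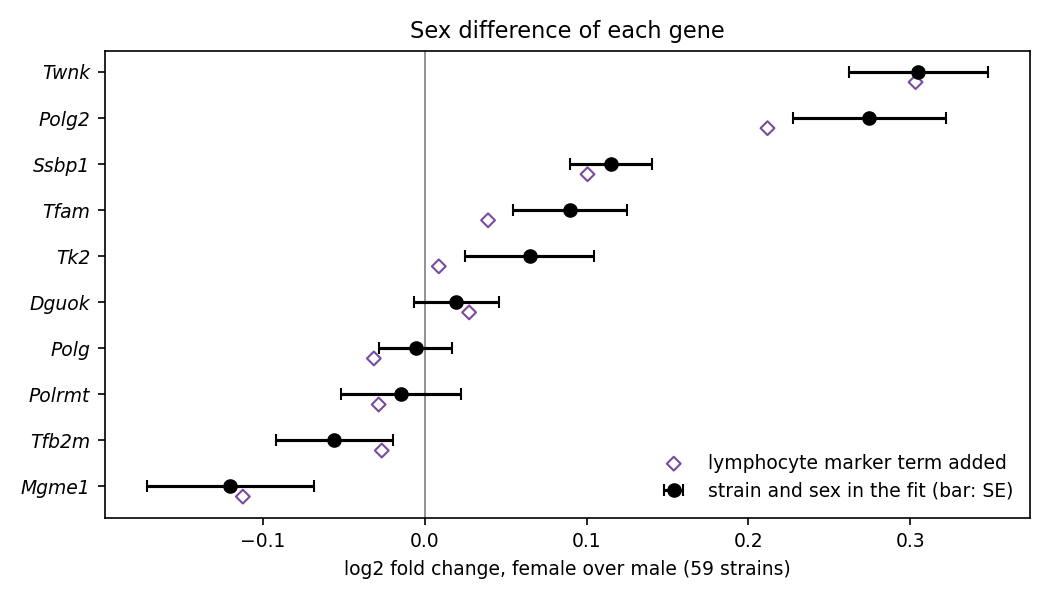
Log2 fold change of each gene, female over male, in 59 strains, with bars for the SE (filled points), and the same value with the lymphocyte marker term in the model (open diamonds). With the term *Twnk* goes from 0.31 to 0.30, *Polg2* from 0.27 to 0.21 and *Tfam* from 0.09 to 0.04.

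Mammary epithelial markers were higher in females for all 9 genes of the list, and their part in the sex differences above was not tested. Without the strains highest in skeletal muscle markers, 3 members were called, beside 8688 of 16691 genes. Reads of *Twnk*, *Polg*, *Polg2* and *Mgme1* can also overlap those of a gene on the opposite strand (*Mrpl43*, *Fanci*, *Milr1* and *Snx5*), which share exon bases with them. The libraries were stranded, and whether the quantification used the strand is not given in the sources used here.

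Levels of most of the genes differed between strains. In the same edgeR model, 9 of the 10 were called for differences between the 59 strains, beside 75.8% of all genes. The strain F statistic was largest for *Polg2* (3.23, adjusted p = 3.62e-05) and *Mgme1* (3.21, adjusted p = 4.0e-05), followed by *Ssbp1* (2.56), *Tfb2m* (2.48) and *Dguok* (2.28). It was 1.89 for *Tfam*, 1.85 for *Polg*, and 1.72 for *Tk2* and *Twnk*, beside a median of 1.99 over all genes. The RNA polymerase gene *Polrmt* had 1.56 and was not called (adjusted p = 0.0584, edgeR). Only the spread left between the 2 libraries of a strain after sex serves as error here, since no strain has 2 libraries of a sex.

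*Mgme1*, the exonuclease gene, had the widest range of strain means. CE/J had 8.18 CPM in the female and 7.26 in the male, and BXD60/RwwJ had 7.21 and 8.72. At the other end AXB5/PgnJ had 20.4 and 21.2, and BXD14/TyJ had 25.7 and 19.1. Both sexes of each of these strains were on the same side, and the highest strain mean was 2.88 times the lowest.

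*Polg2* ranged from CXB11/HiAJ (6.28 CPM in the female, 5.56 in the male) and BXD44/RwwJ (6.83 and 5.18) to SJL/J (14.5 and 11.8) and CXB13/HiAJ (15.2 and 11.6), a fold of 2.25 between the extreme means. *Tfam* ran from BXA8/PgnJ (30.5 and 30.6 CPM) to SJL/J (60.6 and 60.9), a fold of 1.99. SJL/J also had the highest *Polrmt* (21.2 and 26.2 CPM). For *Polrmt* the MA/MyJ libraries were far apart, with 30.4 CPM in the female and 16.9 in the male.

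The deoxynucleoside kinase genes shared their lowest strains. KK/HlJ had the lowest mean of *Tk2* (24.5 CPM in the female, 28.99 in the male) and of *Dguok* (19.7 and 20.4), and BXD71/RwwJ was next for both. Their highest strains differed, with BALB/cJ (52.9 and 43.2) for *Tk2* and BXD12/TyJ (32.98 and 36.96) for *Dguok*. *Polg* had the narrowest range, from 55.9 and 57.6 CPM in BXD64/RwwJ to 80.3 and 84.6 in AXB19a/PgnJ, a fold of 1.45. Differences of the lymphocyte and beige markers between strains were not removed from these values.

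The BXD strains went past their parents on both sides. For *Mgme1*, C57BL/6J had a mean of 13.9 CPM and DBA/2J of 11.2, and the 26 BXD means ran from 7.93 to 22.2, with 8 above and 8 below both parents. For *Tk2*, 17 BXD strains were above and 7 below the parents (33.1 and 33.7 CPM). For *Polg*, 2 were above and 13 below (parents at 68.7 and 76.5 CPM), and for *Twnk* 5 above and 14 below (16.2 and 19.2). Each parent is 1 female and 1 male library, so these counts describe the libraries at hand.

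Whether a strain's level recurs in its other sex was read from the correlation of log2 CPM between the female and the male library over the 59 strains, with a two-sided permutation test of the pairing for every gene. Of the 10 genes, 7 had a positive correlation past an adjusted p of 0.05, beside 52.1% of all genes (0.0298% had a negative one past it). Pearson's r was 0.54 for *Polg2* (Spearman's rho 0.55, adjusted permutation p = 0.000239 and 0.00012), 0.52 for *Mgme1* (rho 0.52, adjusted permutation p = 0.000303 and 0.000349) and 0.45 for *Ssbp1* (rho 0.45, adjusted permutation p = 0.0017 and 0.00243). It was 0.41 for *Dguok* and *Tfb2m* (rho 0.33 and 0.42, adjusted permutation p of rho 0.0245 and 0.00428). The 5 genes with the largest strain F had the largest r, which is another reading of the same libraries and not a separate experiment.

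*Polg* (r = 0.33, adjusted permutation p = 0.028) and *Tfam* (r = 0.29, adjusted permutation p = 0.0492) were weaker, and both lost the call without the 2 strains farthest from the female median (r = 0.27 and 0.28) and by Spearman's rho (0.28 for each). *Twnk* (0.25), *Tk2* (0.25) and *Polrmt* (0.20) did not pass. *Tk2* was called by Spearman's rho (0.29, adjusted permutation p = 0.0484) and in strains low in lymphocyte markers (r = 0.58, adjusted permutation p = 0.0248), and *Polrmt* on log2(TPM + 1) (r = 0.29, adjusted permutation p = 0.0466). The median r of all genes was 0.30. Without the 2 strains farthest from the median, r was 0.51 for *Polg2*, 0.47 for *Mgme1*, 0.39 for *Ssbp1* and 0.37 for *Dguok* and *Tfb2m*.

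Within the 26 BXD strains, r was 0.70 for *Polg2*, 0.59 for *Mgme1* and 0.52 for *Ssbp1*, which were the members called, and within the 33 others *Dguok* alone was called (r = 0.52). In the 19 strains with both libraries under 100 lymphocyte marker CPM, 7 members were called, with r = 0.86 for *Mgme1*, 0.78 for *Tfb2m*, 0.72 for *Polg* and 0.71 for *Dguok*. Of all 16765 genes 8031 were called there, with a median r of 0.50. On log2(TPM + 1) the r of *Ssbp1* was 0.09.

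**Figure D4:**
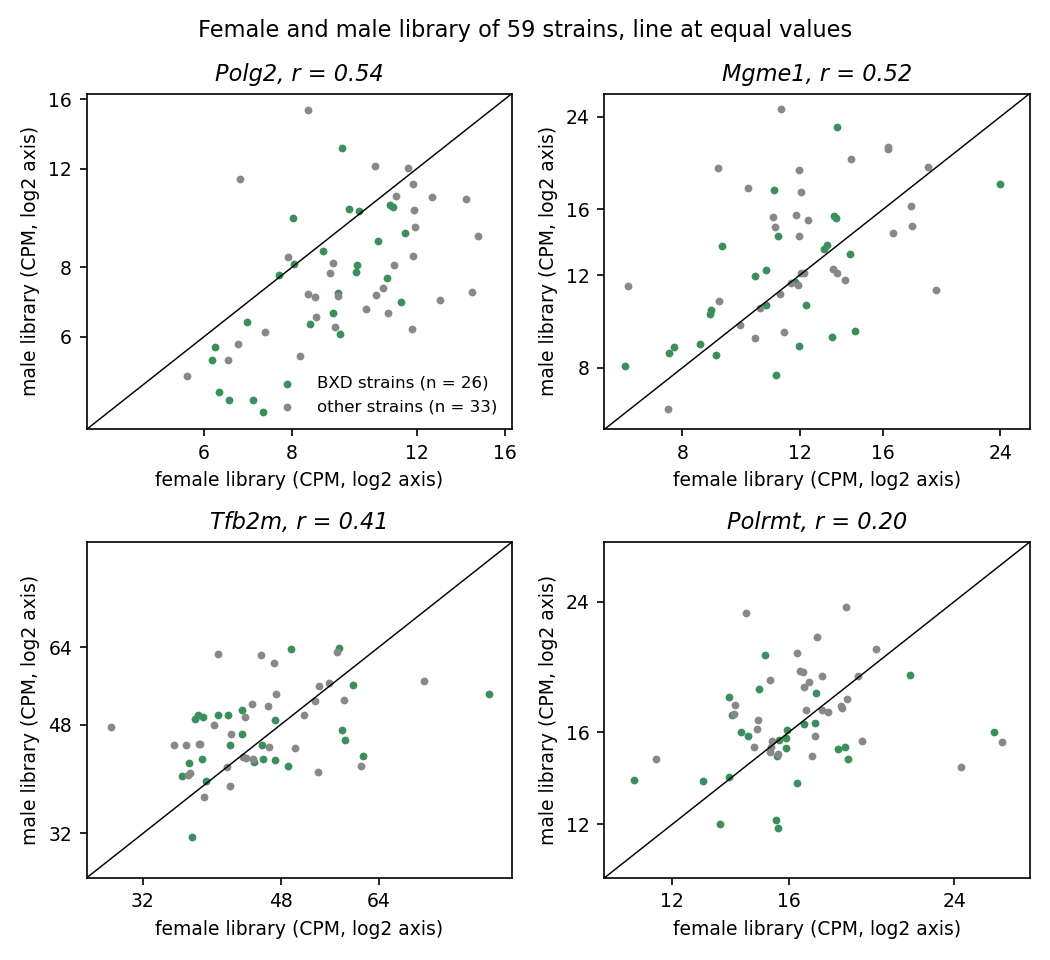
CPM of the female library against the male library of each strain for *Polg2*, *Mgme1*, *Tfb2m* and *Polrmt* (log2 axes, scaled to the total of all genes; 26 BXD and 33 other strains), with a line at equal values. Points of *Polg2* lie mostly below the line, as the female was higher in 48 of 59 strains, and the points of *Polrmt* (r = 0.20) follow the line least.

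The mitochondrial share of counts ran from 3.99% to 29.9%, with a median of 8.60% in females and 8.40% in males. Within strains the female had the higher share in 27 of 59, with a mean log2 difference of -0.0087 ± 0.58 (SD). It is a share of RNA, and mtDNA copy number was not analysed here. The slope of each gene on log2 of this share was tested in the 59 strains with strain and sex in the model, with mitochondrially encoded genes kept out of the library totals (edgeR, 16760 nuclear genes).

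The exonuclease gene *Mgme1*, the transcription genes *Tfb2m* and *Polrmt* and the helicase gene *Twnk* rose with the share, and *Tfam*, *Polg*, *Polg2*, *Ssbp1*, *Tk2* and *Dguok* did not pass. Of the 10 genes, 4 had a positive slope past an adjusted p of 0.05 and none a negative one (also none at an unadjusted p under 0.05, and none with limma-voom), where 22.4% of all genes were called, 11.8% positive and 10.6% negative. The median slope of the 10 genes was 0.12, beside -0.03 over all genes tested.

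*Mgme1* had the steepest slope, with log2 expression higher by 0.45 per doubling of the share (SE 0.0679, adjusted p = 6.03e-07, edgeR). In the 36 libraries with the lowest share (3.99% to 7.40%) it had 7.24 to 17.7 CPM (median 12.5), and in the 36 with the highest share (11.02% to 29.9%) 9.18 to 27.2 CPM (median 17.3). Of the high-share libraries, 28 were above the median of the low-share ones.

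*Tfb2m*, the initiation factor of mitochondrial transcription, followed with 0.33 per doubling (SE 0.0438, adjusted p = 1.5e-08, edgeR). It went from 34.6 to 61.8 CPM (median 45.4) in the low-share libraries to 37.4 to 95.03 (median 60.02) in the high-share ones, 35 of which were above the low median. The highest value belonged to the BXD14/TyJ female, whose share was 25.8%.

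*Polrmt*, the mitochondrial RNA polymerase, had a slope of 0.30 (SE 0.0506, adjusted p = 4.0e-06, edgeR), with medians of 16.7 and 18.9 CPM in the low-share and high-share libraries. Its lowest value among the high-share libraries, 1.26 CPM, was the BXD34/TyJ female, which is outside the test. *Twnk* had 0.22 (SE 0.0669, adjusted p = 0.0132, edgeR), with medians of 16.5 and 19.8 CPM.

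Further members with positive slopes that did not pass were *Tfam* (0.14, SE 0.0608, adjusted p = 0.0997, edgeR), *Dguok* (0.11, SE 0.0447, adjusted p = 0.0669, edgeR), *Polg2* (0.10), *Ssbp1* (0.07) and *Polg* (0.05). The low-share and high-share libraries do not separate called from uncalled members. Of the 36 high-share libraries, 32 were above the low-share median for *Tfam*, 30 for *Ssbp1* and 29 each for *Polg2* and *Dguok*. For *Polg* it was 23 and for *Tk2* 16, beside 28 for the called *Mgme1* and *Polrmt*. *Dguok* was called in 10 of 19 alternatives (adjusted p from 0.000262 to 0.981, edgeR, DESeq2 or limma). *Tk2* had a slope of -0.06 (SE 0.0736) with medians of 38.04 and 36.99 CPM, and without the strains highest in beige markers it was called with a slope of -0.32 (adjusted p = 0.00969, edgeR). The factor that packages mtDNA thus had a smaller slope than its partners in transcription, a difference between genes that was not tested. *Tfam* was called in 6 of 19 alternatives (adjusted p from 0.000288 to 0.637, edgeR, DESeq2 or limma), among them that with the lymphocyte marker term in the model (0.16).

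**Figure D5:**
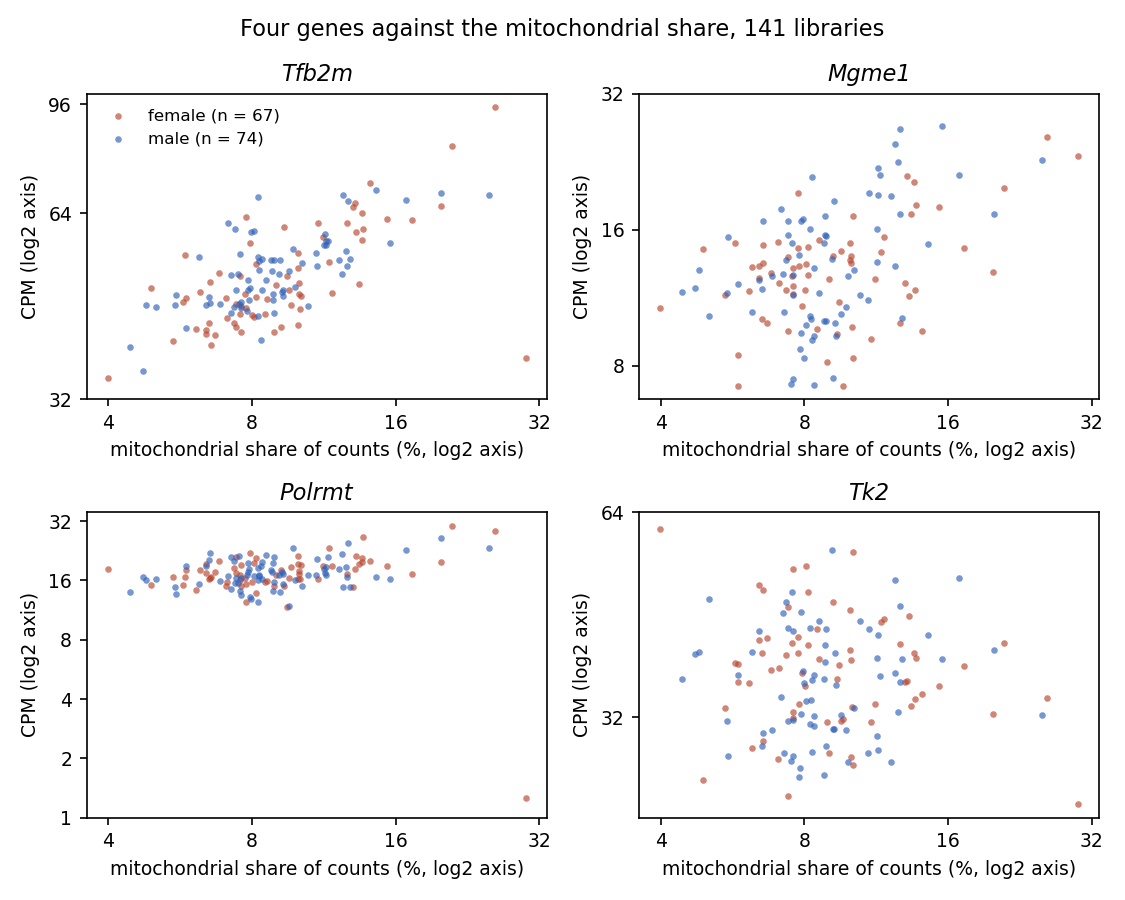
CPM (log2 axis) of *Tfb2m*, *Mgme1*, *Polrmt* and *Tk2* against the mitochondrial share of counts (log2 axis, percent) in female (n = 67) and male (n = 74) libraries. *Tfb2m* and *Mgme1* are higher at high shares (medians of 60.02 and 17.3 CPM in the highest 36 libraries), *Tk2* has medians of 38.04 and 36.99 CPM in the lowest and highest 36, and the single low point of *Polrmt* at 29.9% is the BXD34/TyJ female.

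Brown and beige adipocyte markers (*Ucp1*, *Cidea*, *Elovl3*, *Cox8b*, *Cox7a1*, *Otop1* and *Slc27a2*) moved with the share too. All 7 had a positive slope, and their summed CPM ran from 10.5 to 268 (median 65.1) in the low-share libraries and from 21.9 to 3388 (median 339) in the high-share ones, with an overlap. With this sum as the term in place of the share, 4 members were called with a positive slope, beside 8.31% of all genes in that direction (10.4% in the other, 18.7% in either): *Mgme1* (0.15 per doubling), *Polrmt* (0.11), *Tfb2m* (0.09) and *Tfam* (0.07). With both terms in the model, the share slope of *Tfb2m* was 0.44 (adjusted p = 0.000176, edgeR) and that of *Mgme1* 0.35 (adjusted p = 0.0285, edgeR). Those of *Polrmt* (0.16, adjusted p = 0.181) and *Twnk* (0.24, adjusted p = 0.123) no longer passed, and those of *Tfam*, *Polg* and *Polg2* were below 0 without passing (edgeR).

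In the 19 strains with both libraries under 100 lymphocyte marker CPM 0 of the 10 genes were called for the share and 84 genes in all were (edgeR), while 3 members had an unadjusted p under 0.05; the slopes there were 0.40 for *Polrmt*, 0.35 for *Mgme1*, 0.17 for *Twnk* and 0.09 for *Tfb2m*. Lymphocyte markers had medians of 251.7 CPM in the low-share and 13.6 in the high-share libraries, and with the lymphocyte term in the model the 4 slopes were between 0.22 and 0.44 and each was called. Macrophage markers had medians of 428 and 240.1 CPM, and their part was not tested. The totals behind these marker CPM include the mt- counts, which by definition make up more of the total in high-share libraries.

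The sex difference of the members was not shown to depend on the strain family, nor their share slope on sex. In the interaction tests of sex with BXD origin and of sex with share, 0% of all genes were called with edgeR and with limma-voom. Unadjusted p was under 0.05 for 393 and 857 genes, and for none of the members. The BXD difference ranged from -0.07 for *Ssbp1* to 0.12 for *Mgme1* (log2, BXD minus others), and the slope difference from -0.11 for *Polg2* to 0.04 for *Polg*.

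Other genes of mtDNA biology were taken from 6 lists to set the members beside them. The counts below stand beside these shares of all genes tested: 28.5% higher in females, 30% higher in males and 75.8% differing between strains. With the mitochondrial share, 11.8% rose and 10.6% fell. Of 13 further genes of mtDNA replication and repair, 2 were higher in females, 2 higher in males and 9 differed between strains. The DNA ligase gene *Lig3* had a higher female value in 54 of 59 strains (13.9 and 9.12 TPM at the sex medians, log2FC 0.51) and *Primpol*, which reprimes stalled forks, in 40 (log2FC 0.12), while the nuclease gene *Endog* (-0.17) and the glycosylase gene *Ogg1* (-0.11) were higher in males. With the share, 4 rose and 2 fell, led by *Endog* (0.59 per doubling) and *Poldip2* (0.53) on one side and the nuclease genes *Dna2* (-0.46) and *Exog* (-0.15) on the other. The list's median sex difference was 0.03 and its median slope -0.02.

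Of 18 further genes of mitochondrial transcription and RNA processing, 10 were higher in males, 2 higher in females and 16 differed between strains. The termination factor family gene *Mterf2* (log2FC -0.32) and the poly(A) polymerase gene *Mtpap* (-0.20) led on the male side. Those higher in females were *Mterf1a* (0.18) and *Mterf1b* (0.25), near-identical copies whose reads may be split between them, so their values are uncertain. Between strains *Mterf3* (F = 6.998) and *Tfb1m*, the paralog of *Tfb2m* (F = 3.72), varied most. With the share, 11 rose and none fell by edgeR or limma-voom, or at an unadjusted p under 0.05, led by *Mterf4* (0.46) and the RNA-stability gene *Lrpprc* (0.41). The list's median sex difference was -0.08 and its median slope 0.20.

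Of 20 further genes of deoxynucleotide supply, 7 were higher in males, 4 higher in females and 11 differed between strains. The carrier gene *Slc25a36* (log2FC 0.30, higher in 51 female libraries) and *Nme4* (0.37) led in females, and the succinyl-CoA ligase genes *Sucla2* (-0.36) and *Suclg1* (-0.29) in males. These ligase genes, which also serve the citric acid cycle, rose with the share by 0.91 and 0.85 per doubling, and *Abat* (-0.89) and the dNTP hydrolase gene *Samhd1* (-0.51) fell. In all, 5 rose and 3 fell with the share, and the medians were -0.05 for sex and -0.0062 for the slope.

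Of 15 genes of mitochondrial proteases, chaperones and fusion or fission, 9 were higher in males and none in females by edgeR or limma-voom (1 at an unadjusted p under 0.05), with *Mfn2* (log2FC -0.38) and *Clpx* (-0.32) in front. With the share, 11 rose, led by the chaperone genes *Dnaja3* (0.71) and *Hspa9* (0.63), none fell by either tool or at an unadjusted p under 0.05, and 11 differed between strains, with *Phb* (F = 3.98) first. Of 8 genes that track mitochondrial mass, 7 rose with the share and 5 were higher in males, among them *Immt* (-0.30) and the citrate synthase gene *Cs* (-0.26). Their median slope was 0.42, against 0.12 for the 10 maintenance genes, and their median sex difference was -0.11, against 0.04. The differences between lists were not tested.

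Of 13 regulators of mitochondrial biogenesis, 5 were higher in females, among them *Ppargc1b* (log2FC 0.30) and *Creb1* (0.15), and 3 higher in males, among them *Ppara* (-0.36) and *Ppargc1a* (-0.31). With the share, *Ppara* (1.38 per doubling) and *Ppargc1b* (0.89) rose most, 4 genes rose in all, and *Yy1* (-0.11) fell. Between strains 8 differed, led by *Ppara* (F = 3.89) and *Esrrg* (F = 3.16).

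The genes whose profile was most like that of each member were named by Pearson's r of log2 CPM over all libraries after removal of the sex means, as a description over libraries that share strains and differ in depth. They were *Phf1* for *Tk2* (r = 0.89), *Rmdn1* for *Tfb2m* (0.88), *Taf6l* for *Polrmt* (0.87), *Rfx3* for *Polg2* (0.86), *Dkc1* for *Tfam* (0.85), *Uckl1* for *Polg* (0.84) and *Naca* for *Ssbp1* (0.82). Lower values were reached for *Twnk* with *Shmt1* (0.72), *Dguok* with *Flad1* (0.71) and *Mgme1* with *Dtd1* (0.63). Closest to the mean of the 10 standardised members were *Naa10*, *H2-Ke6*, *Hnrnph3*, *Taz* and *Arfrp1* (0.85 to 0.88). The value of *Taf6l* with *Polrmt* rested in part on the BXD34/TyJ female, without which r was 0.55, and it was 0.93 in the libraries under 100 lymphocyte marker CPM and 0.51 in those over it. Without that female, r was 0.73 for *Uckl1* with *Polg*.

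Among themselves the 10 genes were only loosely tied. Over their 45 pairs r had a median of 0.31 and ranged from -0.30 to 0.73, with 42 pairs above 0, beside a median of -0.0050 over all pairs of genes tested. The median was 0.30 in the libraries under 100 lymphocyte marker CPM and 0.31 in those over it. The highest pair was *Polg* with *Polrmt* (0.73) and the lowest *Polg2* with *Polrmt* (-0.30). The BXD34/TyJ female had the lowest value of both *Polg* and *Polrmt*, and without it their r was 0.50 (Spearman's rho over all libraries 0.55), while the highest pair was then *Tfam* with *Polg2* (0.78). That of *Polg2* with *Polrmt* rested on the BXD34/TyJ female, since Spearman's rho was 0.18 and r was 0.17 without the 2 libraries farthest from the median *Polg2*. *Polg2* and its partner *Polg* had r = 0.08 and rho = 0.54, and r was 0.55 without those 2 libraries.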

How the data were processed

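RNA-seq libraries of subcutaneous adipose tissue were analysed from the authors' tables. The authors quantified stranded paired-end reads with kallisto 0.46.1 (version from the submitters' processing notes) against the Ensembl transcriptome of GRCm38 (mm10) and summed transcripts to genes. Their deposited estimated counts are not normalized, and 30.3% of the values are not whole; they were rounded. Their deposited TPM values are scaled to transcript length and to the same total in each library, so TPM carries no depth. Authors' fold changes were not used, and no column lacked a sample. Symbols were matched for 35856 of 36558 genes, *Prorp* through an older symbol.

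Counts were scaled by TMM and filtered with filterByExpr. Sex, strain, share and their interactions were tested with edgeR 4.0.16 (R 4.3.3), with strain as the block that pairs libraries of the same strain label, after the study's model, and Benjamini-Hochberg adjustment over all genes tested. Correlations used log2 CPM with a prior count of 2 and 100000 permutations, so that 1e-05 is the smallest p they can give. The pairing comes from the strain label, and the median correlation of a gene between the paired libraries was 0.30. Libraries of a strain and sex were not repeated, and p-values measure the spread between libraries. Steps were tested on simulated counts with the same spread setting for every gene, which real libraries need not share. There the share test recovered 48 of 100 genes with a slope of 0.3 and all 100 with a slope of 0.6. The sex test recovered 66 of 68 genes at a log2FC of 0.3. Smaller effects, such as the share slopes of the uncalled members, were not simulated.

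Alternatives were RLE factors, library totals, no or stricter filters, DESeq2 1.42.0, limma 3.58.1 (voom, and log2(TPM + 1) or log2(TPM + 0.1)), fits with no block, BXD or other strains, and fits without strains high in muscle or beige markers or NZW/LacJ. The lymphocyte, beige and high-share alternatives and the values without the BXD34/TyJ female were chosen after seeing the data. The labels give no batch. Values of 1 gene of the lymphocyte marker sum are not reported here. The members and the lists were chosen with earlier results of these data known. Named genes are the members, at most 2 called genes per list, comparison and direction with the largest change, and the genes most like each member. Python 3.11.15 with numpy 2.4.6, pandas 2.3.3 and scipy 1.17.1 was used besides R. Intervals are those of the fit.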

Additional observations from a re-analysis of the deposited data

How the results depend on the processing

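The count of members called between the sexes, 5 of 10, was 9 with library totals in place of TMM, where the median of all genes moved from 0.01 to 0.12 and the split of calls from 4774 higher and 5032 lower in females to 7512 and 2806. On log2(TPM + 1) the split was 5354 and 2878. Beside it 9806 of all genes were called, and 10318 with library totals. It was 3 with no replicate block in the matched strains (8407 genes in all), 3 with no replicate block in all libraries (8316), 3 in strains other than BXD (7721), 3 without the strains high in muscle markers (8688), 3 with the lymphocyte marker term (9835), 2 in BXD strains (6533) and 2 in the 19 strains low in lymphocyte markers (6378). *Twnk* and *Polg2* were called in all 19 alternatives of the sex test. *Tfam* was called in 9 of the 19 (adjusted p from 0.000575 to 0.553, edgeR, DESeq2 or limma) and *Mgme1* in 7.

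Small sex differences changed sign. *Polg* was 0.10 with library totals, 0.0125 at 10 or more counts in every library, 0.0492 and 0.0503 on log2(TPM + 1) and log2(TPM + 0.1) and 0.0019 in strains other than BXD. *Polrmt* was 0.0936 with library totals, 0.0031 at 10 or more counts, 0.15 and 0.16 on these scales, 0.0069 with no replicate block in all libraries and 0.036 in BXD strains. *Tfb2m* was 0.0527 with library totals. *Dguok* was -0.0030 without strains high in beige markers and with mitochondrially encoded genes out of the totals, and -0.0044 without strains over a share of 20%.

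Calls between strains fell from 9 to 5 in BXD strains and to 5 in the others (9158 and 5307 genes in all), and correlations of the sexes from 7 to 3 and to 1 (4960 and 2749 genes). These subsets hold 26 and 33 strains. For the share, 8 members were called in place of 4 with no replicate block in all libraries (7821 genes in place of 3753). In males alone with no block 7 members were called (3178 of 14963 genes). With the beige marker term 2 were called (6265 genes), and in the 19 lymphocyte-poor strains 0 (84 genes). Leaving out strains high in beige markers called 6288 genes, females alone 6025 and the lymphocyte term 5647, with 4, 5 and 5 members; of the 4, *Tk2* had a negative slope (-0.32). Slopes changed sign for *Tk2* without strains high in muscle markers (0.0455) and in males (0.0482), for *Polg* in females (-0.0396), for *Tfam*, *Polg* and *Polg2* without strains high in beige markers (-0.0551, -0.0879 and -0.0894) and with the beige term (-0.0885, -0.15 and -0.21). Fits with no block in all libraries and in females alone include the BXD34/TyJ female, the library with the highest share. Its part in these calls and signs was not tested, nor was any other cause.

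Interaction estimates changed sign for *Tfam* (-0.0509) and *Dguok* (-0.0463) with library totals and for *Twnk* (0.0037) with no replicate block in the BXD test (59 genes called in place of 0), and for *Polg* (-0.11), *Polg2* (0.14), *Polrmt* (-0.0433) and *Tfb2m* (0.0455) with no replicate block in the share test (1247 genes in place of 0). The no-block fit of the share test spans all libraries, the BXD34/TyJ female included, and the part of this library was not tested. All 13 mitochondrially encoded genes are protein-coding, so a share of protein-coding genes is the same share. No strain has a second library of a sex, so no replicate within a group could be left out. Genes with few counts, such as *Polrmt* at 4 counts in the BXD34/TyJ female, are limited by depth.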

Other observations

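*Mgme1* and the gene most like it over all libraries, *Dtd1*, both lie on chromosome 2, with 318.67 kb between them, while for each other member the most similar gene is on another chromosome. Their r was 0.73 in the libraries under 100 lymphocyte marker CPM and 0.53 in those over it.

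The BXD34/TyJ female had 60.6 CPM of *Polg2* beside 25.4 CPM of *Polg* (7.75 and 4.39 TPM). The highest *Polg2* of any male library was 17.8 CPM and the median *Polg* over all libraries 69.3 CPM. The next lowest *Polrmt* count of all libraries, beside its 4 counts, was 143 in the BXA24/PgnJ male.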
